A study of Homo sapiens and Mus musculus with 54 samples.

Results

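The 36 genes described here code flavoenzymes that work mainly in the cytosol, endoplasmic reticulum (ER), peroxisome or nucleus, out of 19974 genes for proteins in the RefSeq table of GRCh38 (chromosomes 1 to 22, plus X). They were chosen by what their proteins do and where. The rule uses no value of these data, but it was written with earlier results of these data known. Peaks of the aryl hydrocarbon receptor (AhR), of the liver factor C/EBPα and of H3K27ac, an acetylated histone residue found at active enhancers, were counted for a gene when they lay within 50 kb of its body. All 36 genes were found in the table, and 35 of them had an AhR peak, against 85.4% of all protein-coding genes. CYB5R2 had none.

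The peaks came from ChIP-seq of HepG2, a human liver cancer cell line, sampled on day 12 with vitamin B2 (control) or without it (B2_minus). AhR and C/EBPα each had 2 control and 2 B2_minus libraries, and H3K27ac had 5 of each. A further H3K27ac experiment had 2 control libraries with DMSO, 2 B2_minus libraries with DMSO and 2 B2_minus libraries with an AhR inhibitor (AhRinh), which the labels do not name. With 6 inputs these make 30 HepG2 libraries of the 54 in the series, and all come from this 1 tumour line. Each experiment was deposited as 1 list of positions with no value per library, so no value is given per sample, no difference between control and B2_minus was measured, and sequencing depth is unknown. The H3K27ac list of the experiment without vehicle or inhibitor is called the untreated list here, although its libraries include B2_minus cells, and the other is called the inhibitor list. All positions are in hg38. The number of H3K27ac regions within 50 kb ran from 10 to 61 at 6 hepatocyte genes (ALB, APOA1, TTR, HNF4A, SERPINA1 and AFP). It was 1 at PTPRC and 2 at CD68, leukocyte genes, but 41 at the endothelial gene PECAM1, 17 at CDH5, 17 at COL1A1 and 8 at COL1A2, so a window count does not measure a marker.

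Flavoenzymes hold FAD or FMN, cofactors that cells make from vitamin B2, and pass electrons through the flavin ring. Outside mitochondria they recycle thioredoxin and glutathione, feed electrons to cytochrome P450 enzymes, oxygenate drugs, oxidise amino acids, hydroxy acids and polyamines, form disulfide bonds and remove methyl groups from histones. AhR is a ligand-activated transcription factor that pairs with ARNT and binds DNA at sites with the core GCGTG, and it is best known for turning on enzymes of drug metabolism in liver. C/EBPα is a transcription factor of mature hepatocytes.

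The sequences that bear most directly on AhR at these genes are the promoters it lay on or close to. RefSeq (GRCh38.p14) gave promoter windows, from 250 bases before a start to 50 after it, for 24 of the 36 genes. An AhR peak overlapped a window at 7 of the 24 (29.2%): AIFM2, AOX1, CYB5R3, DAO, DPYD, HAO1 and PIPOX, against 8.77% of the 15812 protein-coding genes with a window. Only AIFM2 and HAO1 had a merged peak there, that is, an entry whose name ends in a merge number of 2 or more, against 1.95% of genes with a window. At KDM1B and NQO2 an AhR peak lay within 1 kb of the start without touching the window. This made 9 genes, against 15.7% of the genes with a window. The KDM1B peak, 595 bp outside KDM1B, lay nearer to TPMT and was centred 377 bp from a TPMT start. The NQO2 peak was nearest to NQO2 among protein-coding genes, but it was centred 338.5 bp from a start of NQO2-AS1. A C/EBPα peak lay over a window at 3 genes, TXNRD1, FMO4 and HAO1 (12.4% of genes with a window), and an H3K27ac region at ACOX3 only (1.34%). Shown are the 250 bases before the start, 5′ to 3′ on the gene's strand, for the genes with a GCGTG match and then the others in order of name, up to 8. Capitals mark matches, on either strand, to GCGTG, to TTGCGTG (a longer AhR site), to TTGCNNAA (C/EBP) or to TGACNNNGC (the antioxidant response element bound by NRF2). PIPOX came ninth in that order and is not shown.

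AIFM2: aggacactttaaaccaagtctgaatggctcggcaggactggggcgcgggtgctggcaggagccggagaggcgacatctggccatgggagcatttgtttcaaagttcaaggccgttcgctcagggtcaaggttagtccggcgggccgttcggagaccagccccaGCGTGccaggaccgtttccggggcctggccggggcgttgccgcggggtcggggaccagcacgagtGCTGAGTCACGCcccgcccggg
CYB5R3: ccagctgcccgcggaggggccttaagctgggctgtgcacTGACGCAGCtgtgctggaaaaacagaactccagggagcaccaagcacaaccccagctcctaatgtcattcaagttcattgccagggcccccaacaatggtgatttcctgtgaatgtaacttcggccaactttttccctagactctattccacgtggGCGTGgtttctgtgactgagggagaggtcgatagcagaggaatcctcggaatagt
KDM1B: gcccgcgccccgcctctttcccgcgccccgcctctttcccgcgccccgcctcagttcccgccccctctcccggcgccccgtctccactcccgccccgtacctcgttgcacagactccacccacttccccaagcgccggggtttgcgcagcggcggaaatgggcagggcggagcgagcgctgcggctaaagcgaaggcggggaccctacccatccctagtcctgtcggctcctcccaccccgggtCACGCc
NQO2: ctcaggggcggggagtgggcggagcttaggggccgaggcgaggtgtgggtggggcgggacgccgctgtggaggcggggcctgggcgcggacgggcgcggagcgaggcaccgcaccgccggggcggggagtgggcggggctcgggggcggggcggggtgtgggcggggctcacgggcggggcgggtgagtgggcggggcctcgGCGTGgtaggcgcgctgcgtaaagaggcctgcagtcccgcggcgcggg
AOX1: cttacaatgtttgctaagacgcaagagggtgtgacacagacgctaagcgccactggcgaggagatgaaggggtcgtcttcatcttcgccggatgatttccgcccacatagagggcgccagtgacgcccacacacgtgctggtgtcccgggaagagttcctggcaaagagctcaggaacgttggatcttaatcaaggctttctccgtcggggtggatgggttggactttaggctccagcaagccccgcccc
DAO: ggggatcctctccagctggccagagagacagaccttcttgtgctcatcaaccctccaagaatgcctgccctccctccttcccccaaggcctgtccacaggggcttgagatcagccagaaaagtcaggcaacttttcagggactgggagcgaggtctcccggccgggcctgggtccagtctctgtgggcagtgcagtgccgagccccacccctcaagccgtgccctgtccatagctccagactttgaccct
DPYD: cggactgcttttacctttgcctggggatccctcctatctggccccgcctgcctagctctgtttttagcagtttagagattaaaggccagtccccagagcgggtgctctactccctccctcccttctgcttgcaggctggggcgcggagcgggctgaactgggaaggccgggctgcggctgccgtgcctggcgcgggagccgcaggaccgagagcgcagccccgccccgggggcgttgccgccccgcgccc
HAO1: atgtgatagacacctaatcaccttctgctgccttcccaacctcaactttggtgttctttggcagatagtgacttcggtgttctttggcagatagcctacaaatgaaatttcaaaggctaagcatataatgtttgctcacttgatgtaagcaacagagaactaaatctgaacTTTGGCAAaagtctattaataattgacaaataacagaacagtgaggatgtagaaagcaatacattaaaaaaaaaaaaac

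These windows lie at chr10:70132826-70133075 (AIFM2, minus strand), chr22:42644627-42644876 (CYB5R3, minus), chr6:18155172-18155421 (KDM1B, plus), chr6:2999644-2999893 (NQO2, plus), chr2:200585764-200586013 (AOX1, plus), chr12:108879842-108880091 (DAO, plus), chr1:97921060-97921309 (DPYD, minus) and chr20:7940459-7940708 (HAO1, minus). In the AIFM2 promoter the AhR peak covered 187 of the 250 bases and all 3 matches, 2 to GCGTG and 1 to TGACNNNGC. The match to TGACNNNGC, GCTGAGTCA on the printed strand, overlaps the GCGTG match nearest the start. In CYB5R3, whose window belongs to an internal start, the peak covered 135 bases and TGACGCAGC, and not the GCGTG core. In HAO1 the peak covered 225 bases and the C/EBP match TTTGGCAA. The AOX1, DAO and DPYD windows held none of the 4 motifs, and neither KDM1B nor NQO2 had its match under a peak.

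Across promoters GCGTG was about as common at these genes as elsewhere, and TGACNNNGC stood before a larger share of few starts. GCGTG was found before 12 of 32 starts (37.5%), against 38.2% of 22132 windows of protein-coding genes. It was found in 2 of the 8 windows of these genes with an AhR peak, against 45.4% of all 1554 windows with one. Of the 8, 2 are windows of DPYD that overlap each other and share 1 peak. TTGCGTG was found before none of the 32, against 1.13% of all windows. TTGCNNAA stood before 2 starts (6.25%, against 7.5%), one each at ACOX3 and HAO1. TGACNNNGC stood before 7 (21.9%, against 11.2%), at ACOX3, AIFM2, CYB5R3, HAO2, TXNRD1 and XDH. Both starts of TXNRD1 had it. These letters are descriptions of the windows, and no test was run on them.

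AhR peaks near the flavoenzyme genes numbered 219, of which 3 lay within 50 kb of more than 1 of the genes, and they form 222 pairs of a peak and a gene. The median was 5 peaks per gene (range 0 to 17), against 4 over all genes. A merged peak lay near 28 genes (66.3% of all genes). In all, 17 of the 36 genes (47.2%) had 6 or more AhR peaks, against 33.7% of all genes, and 6 (16.7%) had more than 10, against 10.3%. These 6 were POR with 17, AOX1 with 16, NDOR1 with 13, ACOX2 with 12, and CYB5R3 and HAO2 with 11 each. FMO4, DAO, DDO and IYD had 2 each, and XDH, ACOX3 and ERO1B had 1. The median gene length was 38192.5 bp, against 24170.5 bp over all genes, so the windows were also longer, and the part of length in these counts was not tested. Per 100 kb of gene plus flanks the median was 3.3 AhR peaks against 2.58, and 22 of the 36 lay above the median of all genes.

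The window was not private to these genes. Nearest genes were sought among protein-coding genes only. In 99 of the 222 pairs another such gene lay nearer to the peak. Of the 36 genes, 33 were the nearest to at least 1 AhR peak, against 61.1% of all genes. CYB5R1, CYB5R2 and ERO1B were not. An AhR peak lay inside or across the gene body of 29 genes (80.6%), against 47% of all genes. Among genes of 20 to 70 kb, a class set after the lengths were seen, this held for 19 of 22 (86.4%) against 56.9%, and all 22 had an AhR peak within 50 kb, against 89.2%. The nearest AhR peak to CYB5R2 lay 52164 bp away, just outside the window, and the farthest counted was 49919 bp from KDM1A.

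**Figure D1:**
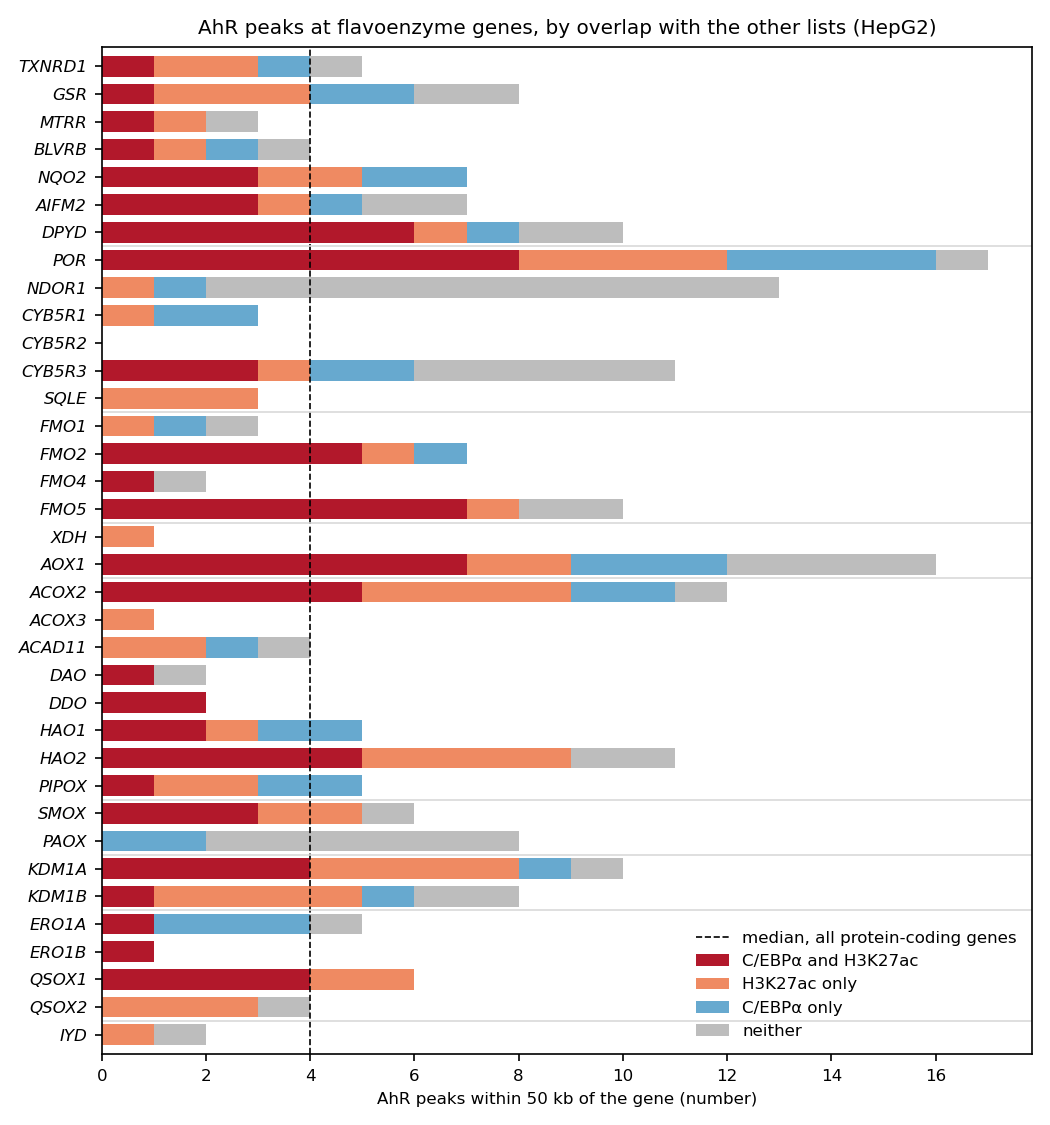
Number of AhR peaks within 50 kb of each of the 36 genes (x axis), with genes grouped by role and bars divided by whether the peak also overlapped a C/EBPα peak, an H3K27ac region of the untreated list, both or neither. POR (17) and AOX1 (16) have the longest bars, CYB5R2 has none, and most of the NDOR1 bar (11 of 13) is peaks with neither; the dashed line is the median of all protein-coding genes (4).

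The reductases of thiols, cofactors, quinones and pyrimidines had 44 AhR peaks in all, with 3 to 10 at each of the 7 genes, and each of the 7 had at least 1 AhR peak that overlapped the C/EBPα list and the untreated H3K27ac list at once. Such peaks are called three-way sites here, and 62.2% of all protein-coding genes had one. TXNRD1, the cytosolic thioredoxin reductase, had 5 AhR peaks, all with a merge number of 1. The merge number ends each peak's name and is read here as the number of peaks joined into the entry, and a peak with 2 or more is called merged. Of the 5, 4 lay inside the gene, and the three-way site at 104220112 to 104220344 on chromosome 12 was centred 4449 bp past its nearest listed start. GSR, glutathione reductase, had 8, of which 1 spanned a gene end at 30727782 to 30728041 on chromosome 8 without overlapping the other lists. Its only three-way site lay 9314 bp away and nearer to UBXN8.

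MTRR, which reactivates methionine synthase, had 3 AhR peaks, and the three-way site lay inside the gene. BLVRB, biliverdin reductase B, had 4, with a three-way site inside the gene centred 3717 bp past the start. NQO2, a quinone reductase, had 7 and AIFM2, a ubiquinone reductase that protects membranes from lipid peroxidation, also had 7, and each had 3 three-way sites. The NQO2 peak at 2999225 to 2999448 on chromosome 6 ended 446 bp before the gene and overlapped a C/EBPα peak. None of the 3 three-way sites of AIFM2 lay nearer to AIFM2 than to another gene, while the 2 peaks at or inside AIFM2 had no H3K27ac region. DPYD, the first enzyme of pyrimidine breakdown and by far the longest gene here at 843317 bp, had 10 AhR peaks, or 1.06 per 100 kb. Of these, 6 were three-way sites and 3 of the 6 lay before the start, centred 5113, 9142 and 9606 bp upstream.

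The group of electron transfer at the ER and in the cytosol, in which the epoxidase SQLE was also counted, had 6 genes and spanned the whole range. POR, the reductase that feeds electrons to the P450 enzymes of the ER, had more AhR peaks than 97.1% of all genes. It also had 25 C/EBPα peaks and 35 H3K27ac regions, the most of the 36 for each list. Of its 17 AhR peaks, 11 lay inside the gene, 8 were three-way sites and 10 were merged. Beyond the lower-numbered gene end, 4 AhR peaks lay between 7441 and 8916 bp away, from 75905992 to 75907714 on chromosome 7. All 4 had an H3K27ac region and 3 of them were three-way sites. The last of the 17, 6840 bp beyond the other gene end, overlapped neither list.

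CYB5R3, which reduces cytochrome b5, had 11 AhR peaks and 3 three-way sites. None of the 4 AhR peaks inside CYB5R3 overlapped an H3K27ac region, and all 3 three-way sites were nearer to POLDIP3 or A4GALT. NDOR1, which supplies electrons for iron-sulfur cluster assembly in the cytosol, had 13 AhR peaks and no three-way site. Only 1 of the 13 was nearest to NDOR1, none was merged, and 12 of the 13 were centred within 3 kb of a listed start of some gene. CYB5R1 had 3 AhR peaks outside the gene and SQLE, the squalene epoxidase of sterol synthesis, had 3, all with H3K27ac and none with C/EBPα. CYB5R2 had no AhR peak, no C/EBPα peak and 5 H3K27ac regions.

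The flavin monooxygenases, ER enzymes that oxygenate nitrogen and sulfur in drugs and diet, had AhR peaks at all 4 genes. FMO5 had 10 and FMO2 had 7, of which 7 and 5 were three-way sites. At FMO5, which overlaps CHD1L, the 3 AhR peaks inside the gene lay in both genes and were all three-way sites, centred 9644, 13564 and 14181 bp past the listed start. The other 7 peaks of FMO5 lay nearer to other genes. At FMO2, 3 three-way sites stood side by side between 171160275 and 171161266 on chromosome 1, 24034 to 24809 bp from the gene. FMO1 had 3 AhR peaks and no three-way site, and FMO4 had 2 and 1. These counts are not independent, since FMO1 lies 35808 bp from FMO2 and 28205 bp from FMO4, and 3 AhR peaks were counted for neighbouring pairs.

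The molybdenum flavoenzymes differed widely. AOX1, aldehyde oxidase, had 16 AhR peaks, whereas XDH, the xanthine dehydrogenase that makes urate, had 1. AOX1 was the nearest protein-coding gene to 15 of its 16. The farthest of these, 46423 bp from AOX1, was centred 6412.5 bp from a listed start of LINC01792. The AOX1 peaks included 1 across the start (200585879 to 200586087 on chromosome 2) and 2 more centred 1214 and 2524 bp past it, and none of these 3 overlapped the other lists. The 7 three-way sites of AOX1 ran from 7116 bp before the start to 116836 bp past it. Only 2 of the 16 AOX1 peaks were merged, against 38.4% of all AhR peaks at the 36 genes. The XDH peak lay inside the gene, 36122 bp past the start, with an H3K27ac region.

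**Figure D2:**
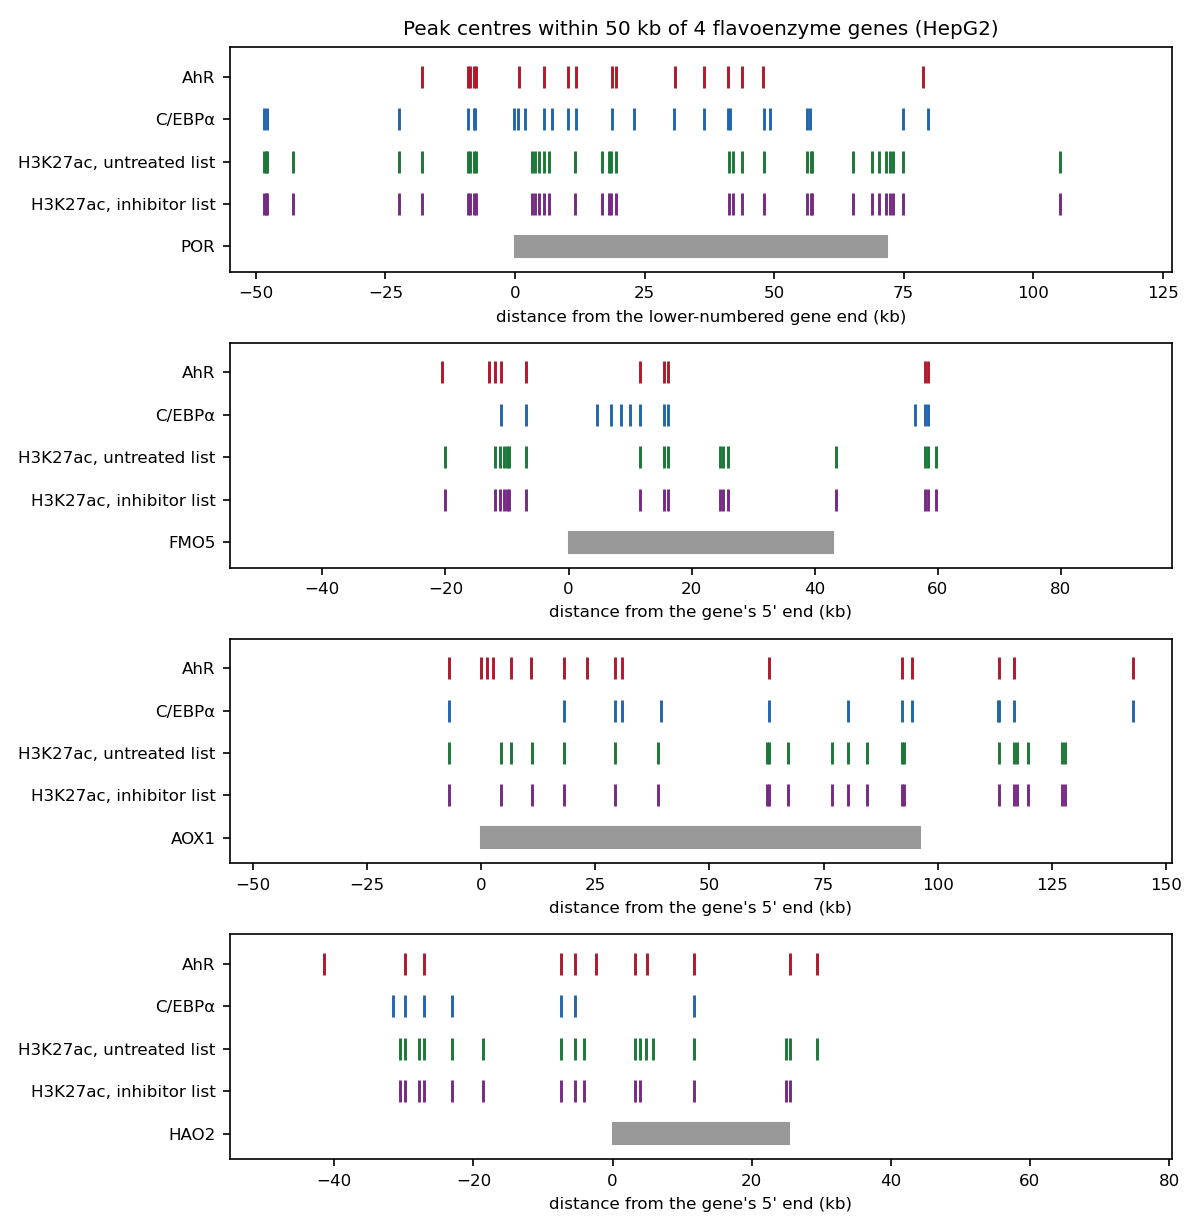
Centres of AhR peaks, C/EBPα peaks and H3K27ac regions of both lists (tick marks, 1 row per list) within 50 kb of POR, FMO5, AOX1 and HAO2, by distance in kb from the gene's 5′ end, or for POR from its lower-numbered end; grey bars are the gene bodies. The 16 AhR peaks of AOX1 run along the whole gene, while 6 of the 11 at HAO2 lie before the gene.

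The peroxisomal enzymes had 42 AhR peaks over 8 genes, and 6 of the 8 had a three-way site. ACOX2, which shortens the side chain of bile acid precursors, had 12 AhR peaks, 13 C/EBPα peaks and 29 H3K27ac regions. Of the 5 AhR peaks inside ACOX2, 3 were three-way sites, and a peak 646 bp beyond the gene end overlapped C/EBPα alone. HAO2, which oxidises long-chain hydroxy acids, had 11 AhR peaks, and it was the nearest protein-coding gene to all 11. Of these, 5 were three-way sites and 4 of the 5 lay before the gene, at 5281, 7299, 27032 and 29759 bp from it. The last 2 of these were centred 13381.5 and 10660 bp from a listed start of LINC01780. The farthest AhR peak, 41425 bp before HAO2, was centred 993.5 bp from a start of LINC01780. HAO1, glycolate oxidase, had 5 AhR peaks, of which the peak across its start (7940436 to 7940683 on chromosome 20) was merged and had a C/EBPα peak centred 3 bp away.

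PIPOX, an oxidase of pipecolate and sarcosine, also had 5, of which the peak that reached into its promoter overlapped C/EBPα and was centred 331 bp before the start. DAO, the D-amino acid oxidase, had 2, with a peak across the start (108879999 to 108880233 on chromosome 12) that overlapped neither list. The nearest C/EBPα peak to DAO lay 20962 bp from the gene. DDO, D-aspartate oxidase, had 2, both of them three-way sites just outside the gene, 2508 and 3714 bp from its ends. ACAD11 had 4 AhR peaks and ACOX3 had 1, with no three-way site at either gene.

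Among the remaining genes, SMOX, spermine oxidase, had 6 AhR peaks and 3 three-way sites beside 26 H3K27ac regions. PAOX, which oxidises acetylated polyamines, had 8 AhR peaks and no H3K27ac region at any of them. Of the 8, 5 formed a block from 133346459 to 133349326 on chromosome 10, and only the peak 508 bp from PAOX was nearest to it. KDM1A, a demethylase of histone H3 lysine 4, had 10, of which 9 lay nearer to another gene, 5 of them to LUZP1, and the peak inside KDM1A overlapped C/EBPα alone. KDM1B, a related demethylase, had 8 AhR peaks, 2 of them nearest to KDM1B, and 1 three-way site.

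The disulfide makers had 16 AhR peaks over 4 genes. QSOX1, a sulfhydryl oxidase, had 6, all with an H3K27ac region, and the three-way site inside the gene was centred 2971 bp past the start. ERO1A, which oxidises protein disulfide isomerase in the ER, had 5, of which 4 overlapped C/EBPα and 1 overlapped H3K27ac. QSOX2 had 4 and none overlapped C/EBPα, and ERO1B had 1, a three-way site 46067 bp from the gene. IYD, which recovers iodide from iodotyrosines and is known mainly from the thyroid, had 2 merged AhR peaks, 1 across a gene end (150368784 to 150369012 on chromosome 6) and 1 inside, and its nearest C/EBPα peak lay 45565 bp away.

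A C/EBPα peak lay within 50 kb of 35 of the 36 genes (88.6% of all genes), with a median of 5.5 per gene against 4. An H3K27ac region of the untreated list lay within 50 kb of all 36 (90.4% of all genes), with a median of 9 against 7, and so did a region of the inhibitor list (88.1% of all genes). The number of AhR peaks per gene had a Spearman rho of 0.65 with C/EBPα peaks and of 0.72 with H3K27ac regions over the 36 genes, against 0.83 and 0.81 over all 19974 genes. The lists share the cell line and the windows, so these values only describe the loci. NDOR1 stood apart with 13 AhR peaks beside 1 C/EBPα peak, and SMOX and QSOX2 had many H3K27ac regions (26 and 18) for 6 and 4 AhR peaks.

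**Figure D3:**
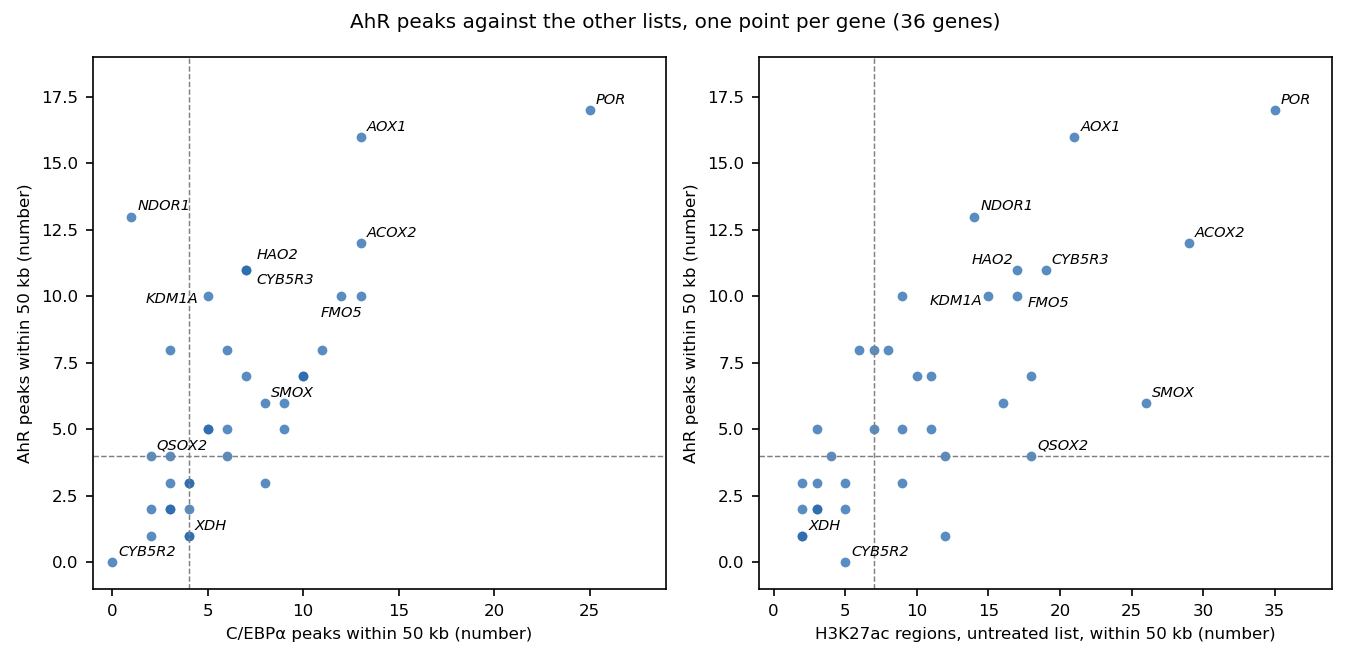
AhR peaks per gene (y axes) against C/EBPα peaks (left) and H3K27ac regions of the untreated list (right), all within 50 kb, 1 point per gene, with darker points where genes coincide; dashed lines are the medians of all protein-coding genes (4 AhR peaks, 4 C/EBPα peaks and 7 H3K27ac regions). POR lies at the upper right of both panels, and NDOR1 lies to the left in the C/EBPα panel.

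Three-way sites were found at 25 of the 36 genes (69.4%), against 62.2% of all genes. Those without were NDOR1, CYB5R1, CYB5R2, SQLE, FMO1, XDH, ACOX3, ACAD11, PAOX, QSOX2 and IYD. Of the 219 AhR peaks, 77 (35.2%, 95% Wilson interval 29.1 to 41.7) were three-way sites, against 40.4% of the 47681 AhR peaks within 50 kb of any protein-coding gene. A further 56 (25.6%) had an H3K27ac region alone, 35 (16%) had a C/EBPα peak alone and 51 (23.3%, interval 18.2 to 29.3) had neither, against 29.1%, 14.9% and 15.6%. The intervals cover counting error over peaks only, and peaks near a gene are not independent. Where AhR and C/EBPα peaks overlapped at these genes, in 112 cases, AhR and C/EBPα centres were a median of 20.5 bp apart. Merged peaks made up 57.1% of the three-way sites and 19.6% of the peaks with neither, against 63.7% and 13.8% near all genes.

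The share with neither went with the distance to listed transcription starts. Of the 208 AhR peaks on chromosomes with such starts, 46 (22.1%) were centred within 3 kb of one, against 15% near all genes. Of these 46, 3 had an H3K27ac region (6.52%) and 28 had neither partner (60.9%), against 16.4% and 42.5% near all genes. Farther out, 75.9% of 162 had an H3K27ac region, 45.1% were three-way sites and 13% had neither, against 78.8%, 45.7% and 10.9%. No start was listed for 12 of the flavoenzyme genes, nor for protein-coding genes beyond the 15812 with a window. Peaks at unlisted starts can therefore fall in the farther group. The IYD peak across a gene end was scored 77971 bp from a start. The POR peak at 75915733 to 75915975, inside the gene near its lower-numbered end, was scored 78741 bp away. The shares thus hold for listed starts only, and the part of missing starts was not tested. Peak and region centres were pooled over all listed starts by distance to the nearest start. Each count was divided by the bin width in bp. On this scale the untreated H3K27ac list held 3.08 within 500 bp, 1.67 from 500 to 1000 bp and 1.21 from 1 to 2 kb. It held 1.19 from 2 to 3 kb, 3.93 from 3 to 4 kb and 3.47 from 4 to 5 kb. AhR had 4.77, 2.37, 2.06, 1.68, 1.6 and 1.35 in the same bins. The H3K27ac list was thus lowest between 500 bp and 3 kb. Its bin next to the start was also below those from 3 to 5 kb, whereas AhR was highest next to the start. Within 3 kb of a listed start lay 4.66% of the whole untreated H3K27ac list, against 13.5% of the whole AhR list. At AIFM2, AOX1, CYB5R3, DAO, DPYD, HAO1 and PIPOX the AhR peak at the promoter had no H3K27ac region, which says only that none was listed there. NDOR1 alone gave 11 of the 28 peaks with neither partner close to a start.

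The inhibitor experiment, by its design, asks whether H3K27ac in B2_minus cells depends on AhR. Its list is not divided by treatment, so it can be compared only as a list. Near the flavoenzyme genes the untreated list had 393 H3K27ac regions. Of these, 352 (89.6%) had identical coordinates in the inhibitor list, against 88.6% near all genes, and 41 were absent from it. No region overlapped the inhibitor list at other coordinates, here or among the 89488 near all genes. Whether the lists were called separately is not stated in the sources used here and was not tested. The identical share therefore does not measure agreement between separate experiments. The inhibitor list had 365 regions here, of which 13 (3.56%, against 3.7%) were absent from the untreated list. Regions in the untreated list alone lay at 24 of the 36 genes, against 54.6% of all genes, with 4 each at DPYD, KDM1A and QSOX2 and 3 each at ACOX3 and HAO2. Regions in the inhibitor list alone lay at 13 genes, against 23% of all genes. POR, with 35 regions, SMOX, with 26, FMO5, with 17, AIFM2, with 11, and GSR, with 8, had the same regions in both lists.

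AhR peaks lay on 121 of the 352 shared regions (34.4%), 12 of the 41 in the untreated list alone (29.3%) and none of the 13 in the inhibitor list alone, against 39.3%, 21.7% and 8.13% near all genes. The 12 lay at DPYD (3), ACOX2 and HAO2 (2 each), and at AOX1, HAO1, KDM1A, MTRR and FMO2, where 1 region is shared with the window of FMO1. Of these, 4 also overlapped C/EBPα: 97489868 to 97490092 and 97930086 to 97930303 on chromosome 1 at DPYD, 58580880 to 58581167 on chromosome 3 at ACOX2, and 22979867 to 22980214 on chromosome 1 at KDM1A. At DPYD, 4 of 9 regions of the untreated list were missing from the inhibitor list. No source used here says how many libraries stood behind a region of either list, so these absences do not measure an effect of the inhibitor.

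**Figure D4:**
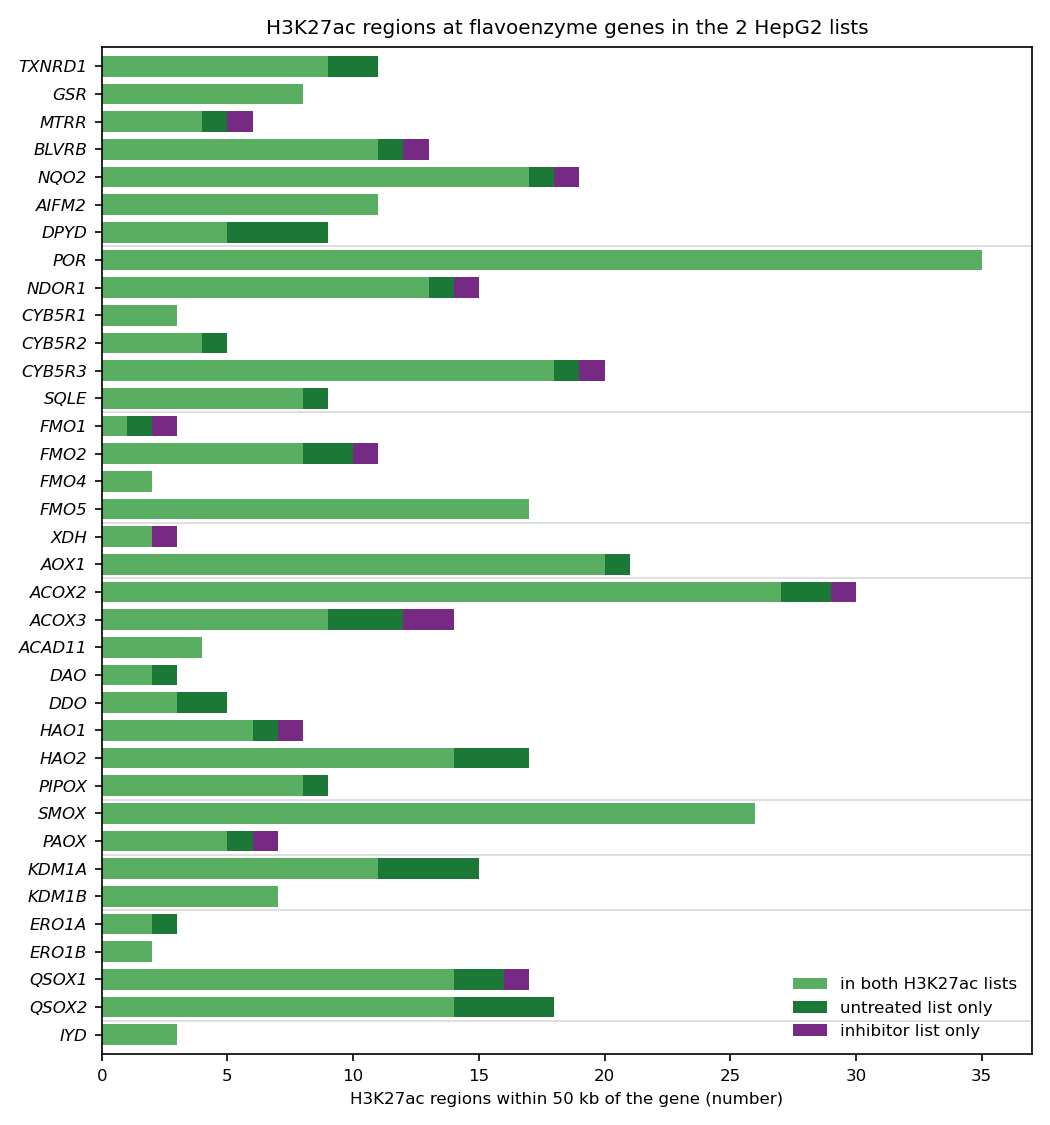
H3K27ac regions within 50 kb of each of the 36 genes (x axis), divided into regions in both lists, in the untreated list only and in the inhibitor list only. Most of each bar is regions in both lists, with 4 regions in the untreated list only at DPYD, KDM1A and QSOX2.

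The same counts are given for other flavoenzymes, with no test of a difference. Of 33 other flavoenzymes outside mitochondria, 30 (90.9%) had an AhR peak and 22 (66.7%) a three-way site, with a median of 4 AhR peaks. NOS1, CYB5R4 and CYBB had none. Of 34 mitochondrial flavoenzymes, all 34 had an AhR peak and 28 (82.4%) a three-way site, with a median of 6.5.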

How the data were processed

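ChIP-seq lists of HepG2 were used. The authors deposited each as names and positions, with no tag count, score or value per library, and Bowtie2 and HOMER and the builds hg38 and mm10 are named without roles or versions per the submitters' processing notes. Caller settings, filters and the peak sets merged were not given in the sources used here. Libraries were grouped by their titles. The 2 mouse lists were not used here.

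An interval was counted for a gene when any base lay within 50 kb of the RefSeq gene body (GRCh38.p14, the assembly of hg38; no exons in the table used here, so exonic and intronic peaks are not told apart). Overlap meant at least 1 bp. Promoter windows and sequences came from RefSeq, and starts were read from the same table. Wilson intervals are at 95%.

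Since the lists hold positions alone, values are counts beside the same counts over all genes, with no test and no p. The genes and lists were chosen with earlier results of these data known. All 36 genes were named. Positions were given in full only for some peaks of the genes with most three-way sites (FMO2, ACOX2 and HAO2 tied for the fifth place) and of those with a peak at a promoter or gene end, and for other peaks chosen after their values were seen. Alternatives were window, nearest gene, merged peaks, overlap rule and H3K27ac list. The interval routines were checked on simulated data. Scripts ran under Python 3.11.15 with pandas 2.3.3 and NumPy 2.4.6, intervals came from SciPy 1.17.1 and plots from Matplotlib 3.10.9.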

Additional observations from a re-analysis of the deposited data

How the results depend on the processing

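Of 41 alternatives over 9 results, 35 stayed within 1.5 times a count or within the counting interval of a share, and 6 moved. This tally is a weak check. Results that began at 35 or 36 of the 36 genes could move only on a large fall. Absence judged by 1 bp overlap could not differ from absence judged by coordinates, since no region overlapped the other list at other coordinates. Genes with an AhR peak numbered 33 in a 10 kb window, 29 in the gene body, 33 by nearest gene and 28 with merged peaks only, against 64.6%, 47%, 61.1% and 66.3% of all genes. Genes with a three-way site fell from 25 to 13 in the gene body alone (25.9% of all genes), which holds fewer peaks by construction. The share of three-way sites among AhR peaks went from 35.2% to 52.4% with merged peaks only (61% near all genes) and to 45.1% for peaks 3 kb or more from every listed start (45.7%), and the cause was not tested. That last setting, intervals wholly inside the window and the 20 to 70 kb class were chosen after seeing the data. With merged peaks only, 2 genes in place of 7 had an AhR peak over a promoter (1.95% of genes with a window). A 10 kb window holds fewer regions by construction. In it, 20 of 183 regions (10.9%) were in the untreated list alone, against 10.2% near all genes. The 50 kb window gave 10.4%. In the inhibitor list alone were 3 of 166 (1.81%), against 3.35% near all genes and 3.56% in the 50 kb window. The cause of the change in shares was not tested.

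No paired analysis was possible because no list holds a value per library, and for the same reason leaving out replicates was not run. Depth is unknown, so a gene without a peak is only a gene not listed.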

Other observations

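Of 3 relatives of these genes outside the set, NQO1 and TXNRD3 had AhR peaks and CYB5R4 had none. NQO1, the quinone reductase related to NQO2, had 11 AhR peaks and 5 three-way sites beside 6 H3K27ac regions. TXNRD3, a relative of TXNRD1, had 1 AhR peak and no C/EBPα peak. CYB5R4 had no AhR or C/EBPα peak and 3 H3K27ac regions, beside none, none and 5 at CYB5R2. These relatives were picked from the list of other flavoenzymes after its values were seen.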
